A study of Mus musculus with 16 samples.

Results

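Motor proteins turn ATP into movement along the cytoskeleton, and their genes were followed here through the RNA that THOC5, a subunit of the THO complex of mRNA export, brought down from primary mouse vascular smooth muscle cells. The set holds 82 genes, chosen by name alone: kinesins (Kif and a number), cytoplasmic dynein subunits (Dync), and myosin heavy chains (Myo and Myh), with Myh11 left out because it serves as a marker of the smooth muscle cell. They comprise 38 kinesins, 7 cytoplasmic dynein genes, 25 Myo genes and 12 Myh genes, of 21896 protein-coding genes in the RefSeq annotation. Of the 82 genes, 31 had at least 1 peak in any list.

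The cells were wild type and were compared in 4 conditions: osteogenic medium with THOC5 overexpressed (THOC5 OE), osteogenic medium with GFP overexpressed (GFP OE), osteogenic medium alone (Pi) and growth medium (Ctrl). Each condition had 2 immunoprecipitates with 1 peak list each, so 8 of the 16 samples entered the analysis, and the 8 inputs were not analysed here. A peak is a stretch of the genome where the authors' peak calling found RNA-derived reads, and a gene with a peak is called bound below. The labels do not say whether replicates came from separate cultures or how the genes were overexpressed, so p-values measure only the spread between these lists, which may be technical.

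Kinesins walk along microtubules, mostly toward the plus end at the cell periphery, and cytoplasmic dynein walks toward the minus end near the centrosome. Myosins pull on actin filaments, the Myh class as bipolar filaments that contract and most of the Myo class as carriers or tethers of membranes. In vascular smooth muscle, actin and myosin generate tone, while microtubule motors move organelles, vesicles and mRNA granules and build the primary cilium.

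The lists held between 2572 and 4795 peaks, and the number of reads behind them is unknown. Their lowest scores differed, at 6.72 and 6.31 with THOC5 OE, 10.2 and 12.6 with GFP OE, 20.5 and 14.9 with Pi and 29.0 and 15.9 with Ctrl, so that lists of overexpressing cells reached further down. Of the smooth muscle markers, 5 of 11 were bound in any list (Acta2, Tagln, Smtn, Mylk and Lmod1), against 18% of all protein-coding genes, with summed peaks of 11 and 9 with THOC5 OE, 8 and 5 with GFP OE, 8 and 9 with Pi and 7 and 14 with Ctrl. Mylk supplied 64 of these peaks, and every one in the lists of overexpressing cells. Myh11 had no peak. None of 6 endothelial and none of 9 skeletal or cardiac muscle markers was bound, against 1 of 5 fibroblast markers (Pdgfra), 1 of 5 leukocyte markers (Csf1r) and 1 of 6 osteochondrogenic markers (Runx2). Thoc5 itself had 1 peak, in Ctrl 2, so the peaks do not check the overexpression.

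Peaks at the start of motor genes were looked for in promoter windows. The promoter windows of RefSeq (GRCm38.p6, the build named mm10 in the lists), which run from 250 bases before to 50 bases after a gene's start, were matched for 68 of the 82 genes and 25 of the 31 bound genes. In 6 of them a peak covered some bases. The same count was not made over all windows, and peaks more than 50 bases into a gene fall outside it. The 3 most covered belong to genes with peaks in all 8 lists. For these, the 30 bases just before the start used for the window are shown 5′ to 3′ on the gene's strand. Bases under a peak of any list are in capitals. In all 3 genes that start lies inside the RefSeq span, whose 5′ end is the zero of the distances given below. The stretches are Dync2h1 on the minus strand at chr9:7177059-7177088, Myo9a on the plus strand at chr9:59751144-59751173 and Myo5a on the plus strand at chr9:75071176-75071205.
Dync2h1: CCTCAGATGTCCTACTTCCGGTGCGCGCTC
Myo9a: gcggagtctctctgacagggcGGGGGATGC
Myo5a: GGCGGCGGCGGCGGCATCGCGCGCCGCGGA

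In the window of Dync2h1 the covered stretch was 92 bases long, in the lists Pi 1, Pi 2 and Ctrl 2. In Myo9a it was 59 bases long and present in 5 lists (both of THOC5 OE, GFP OE 2 and both of Pi), but the authors' annotation gives that peak to the promoter of Senp8, so it was not counted for Myo9a. The Myo5a window was covered over 263 bases in GFP OE 2 only, by a peak of the promoter class that was not counted either. The whole windows hold 12, 37 and 36 CG pairs in the order shown, against a median of 7 over 32851 windows of the same length. A GC box, searched as GGGCGG on both strands, occurs 0, 4 and 1 times, and 35.7% of all windows hold at least 1. The CCAAT box, searched as CCAAT on both strands, occurs 1 time in Dync2h1 and not in the other two, and 37.4% of all windows hold it. These matches are descriptions of the sequence and not binding sites.

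THOC5-bound RNA covered motor genes unevenly. Over the 8 lists there were 566 peaks in motor genes, of 28998 peaks in all. Dync2h1, the heavy chain of the dynein that runs inside cilia, had 109 of them, and together with Myo5a and Myo9a it held 38.9%. The 10 genes with most peaks held 72.3%. Per list the motor genes had 95 and 80 peaks with THOC5 OE, 89 and 50 with GFP OE, 53 and 64 with Pi and 46 and 89 with Ctrl. The means were 87.5 ± 10.6 with THOC5 OE, 69.5 ± 27.6 with GFP OE, 58.5 ± 7.78 with Pi and 67.5 ± 30.4 with Ctrl (SD, n = 2 each), and the ranges of the conditions overlapped except that both THOC5 OE lists lay above both Pi lists. With every list shortened by score to 2572 peaks, the length of the shortest, the means were 53.5 in THOC5 OE, 53.5 in GFP OE, 48 in Pi and 46 in Ctrl. As a share of the peaks given to genes, motor genes took between 1.76% and 2.47% of a list.

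The number of bound motor genes was 27 and 22 with THOC5 OE, 23 and 18 with GFP OE, 21 and 22 with Pi and 18 and 24 with Ctrl. Among the 4050 genes with a peak anywhere, the share bound was 40.7% and 41.7% with THOC5 OE, 35.1% and 30.4% with GFP OE, 38% and 47.2% with Pi and 31.6% and 51.7% with Ctrl. A peak list cannot tell fewer transcripts from less THOC5 on each transcript, nor fewer cells from less RNA per cell.

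Of all protein-coding genes 18% were bound in any list, against 37.8% of the motor genes (31 of 82). Gene length moved with this share. Bound motor genes spanned a median of 117108 bp, motor genes without a peak 39723 bp and all protein-coding genes 17149 bp. None of the 14 motor genes under 25 kb was bound, against 7.88% of other genes that short. From 25 to 50 kb the shares were 31.8% of 22 motor genes and 26.8% of other genes, from 50 to 100 kb 35% of 20 and 36.3%, from 100 to 200 kb 80% of 15 and 43.4%, and above 200 kb 45.5% of 11 and 37.1%. The share of motor genes was thus close to that of other genes of like length except between 100 and 200 kb. Among the 31 bound motor genes the total number of peaks had a Spearman correlation of 0.32 with span, a description across genes that share the same lists.

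**Figure D1:**
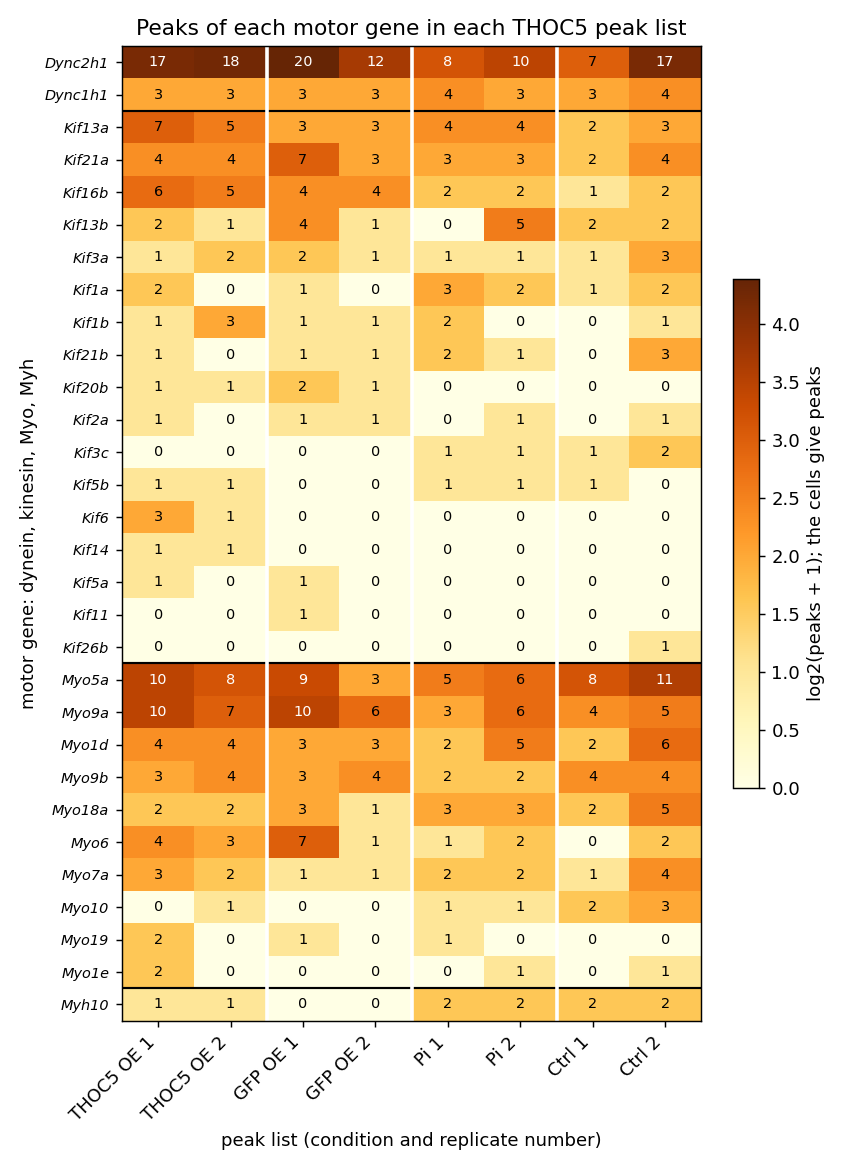
Number of peaks in each of 30 of the 31 bound motor genes (rows, grouped as dynein, kinesin, Myo and Myh) in each of the 8 lists (columns, from THOC5 OE to Ctrl), written in each cell and coloured as log2(peaks + 1). Dync2h1 has the most peaks in every list but Ctrl 1, where Myo5a has 8 against its 7, and genes other than Dync2h1, Myo5a and Myo9a have between 0 and 7 peaks in a list.

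In all 8 lists 12 motor genes were bound, 12 of 31 against 9.88% of the 4050 genes with a peak in any list. By length, 5 of 15 motor genes of 100 to 200 kb were bound in all 8 lists against 8.29% of other genes that long. The 12 are the dynein heavy chains Dync1h1 and Dync2h1, the kinesins Kif13a, Kif16b, Kif21a and Kif3a, and the myosins Myo18a, Myo1d, Myo5a, Myo7a, Myo9a and Myo9b. In a single list 2 genes were bound, Kif11 (GFP OE 1) and Kif26b (Ctrl 2), against 37.2% of all bound genes.

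The remaining 51 genes had no peak. They include 5 of 7 dynein genes (Dync1i1, Dync1i2, Dync1li1, Dync1li2 and Dync2li1), which encode the intermediate and light intermediate chains, so that among the Dync genes only heavy chains were bound. They also include 21 of 38 kinesins, among them Kif3b, the partner of Kif3a, and the mitotic kinesins Kif15, Kif18a, Kif20a, Kif23 and Kif2c. Of the 12 Myh genes, 11 had none, among them Myh9, the heavy chain of non-muscle myosin IIA. A gene without a peak in these lists is not shown to be free of THOC5, since no list gives the level of the RNA.

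Dync2h1 drives retrograde transport in cilia and lies on the minus strand at chr9:6928550-7178306. It had 17 and 18 peaks with THOC5 OE, 20 and 12 with GFP OE, 8 and 10 with Pi and 7 and 17 with Ctrl. Both GFP OE lists exceeded both Pi lists, while Ctrl 2 reached the level of THOC5 OE. Over the 4 lists of overexpressing cells (THOC5 OE and GFP OE) the mean was 16.8 ± 3.4 peaks, against 10.5 ± 4.51 in the 4 other lists (SD, n = 4 each), with p = 0.0857 in the exact two-sided permutation test over lists and adjusted p = 1 over 4050 genes. Counting only peaks with a score of 29.0 or more, the highest of the 8 lowest scores, gave 10 and 11 with THOC5 OE, 10 and 6 with GFP OE, 7 and 8 with Pi and 7 and 11 with Ctrl. The mean difference of 6.25 peaks between overexpressing and other lists was 1 peak at that score, -0.5 without introns and -0.25 when peaks were named by the nearest gene.

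The peaks of Dync2h1 ranked lower the farther they lay from its 5′ end. The authors' peak score has no stated scale, so each peak was given its percentile within its own list. Over the 109 peaks, the Spearman correlation of percentile with distance was -0.72, and within single lists it lay between -0.98 and -0.65. The points share the gene and, within a list, the library. In 3 equal sections of the gene, from 5′ to 3′, the median percentile was 50.7, 24.0 and 13.8, over 47, 43 and 19 peaks. The section nearest the 3′ end held 4 and 5 peaks with THOC5 OE, 4 and 3 with GFP OE, 1 and 0 with Pi and 0 and 2 with Ctrl. Those peaks were the low-ranked ones, and the lists differ in how far down they reach, a part in this count that was not tested.

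**Figure D2:**
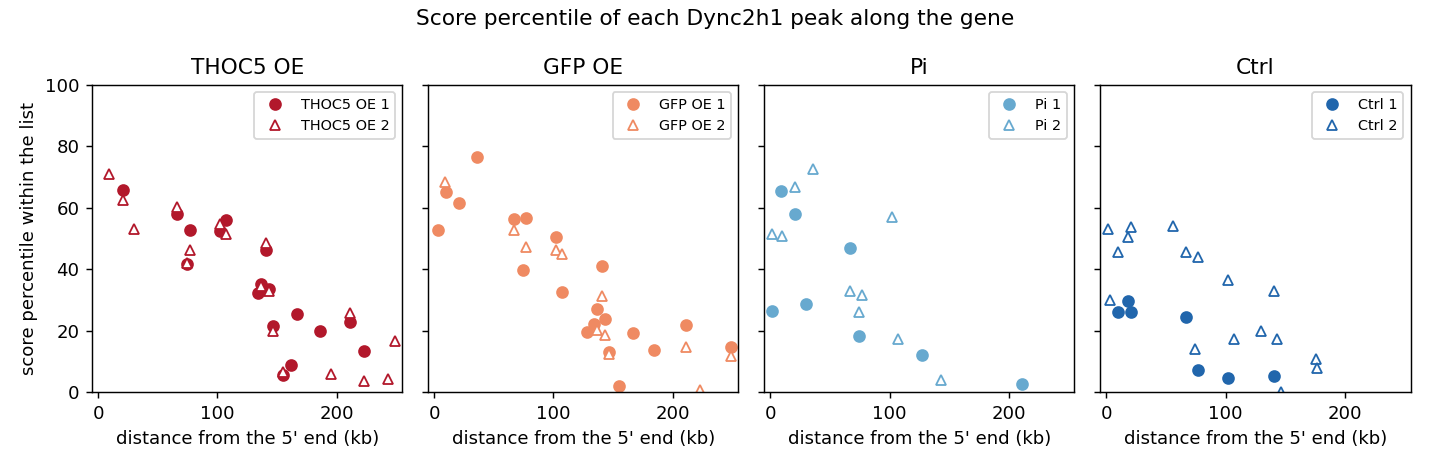
Score percentile of each Dync2h1 peak within its list (vertical axis, 0 to 100) against distance from the 5′ end of the gene in kb (horizontal axis), with a panel for each condition and a symbol for each list. In all 8 lists the percentile falls toward the 3′ end, with a Spearman correlation between -0.98 and -0.65.

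Other genes with 20 or more peaks did not share one pattern. The Spearman correlation of percentile with distance from the 5′ end was -0.78 for Myo18a, -0.36 for Myo1d, -0.01 for Myo9a, 0.14 for Myo6, 0.28 for Myo9b, 0.38 for Dync1h1, 0.39 for Kif16b, 0.44 for Myo5a, 0.49 for Kif21a and 0.51 for Kif13a. These are descriptions over peaks pooled from all 8 lists.

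Dync1h1 is the heavy chain of the dynein that carries cargo through the cytoplasm, and it had the most even record. Its RNA had 3 and 3 peaks with THOC5 OE, 3 and 3 with GFP OE, 4 and 3 with Pi and 3 and 4 with Ctrl, all at or above the score of 29.0. Their percentiles lay between 86.2 and 99.8, with a median of 98.8, against a median of 31.6 for Dync2h1. Scaled to gene length, the total over the 8 lists was 39.7 peaks per 100 kb for Dync1h1 and 43.6 for Dync2h1.

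Kinesins had 175 peaks in 17 genes. Kif13a, an endosomal carrier, had 7 and 5 peaks with THOC5 OE, 3 and 3 with GFP OE, 4 and 4 with Pi and 2 and 3 with Ctrl. Kif21a, which restrains microtubule growth, had 4 and 4 with THOC5 OE, 7 and 3 with GFP OE, 3 and 3 with Pi and 2 and 4 with Ctrl. The ciliary kinesin subunit Kif3a had 1 and 2 with THOC5 OE, 2 and 1 with GFP OE, 1 and 1 with Pi and 1 and 3 with Ctrl. Kif21a peaks ranked highest of the 3, with a median percentile of 82.5, against 47.7 for Kif3a and 31.7 for Kif13a.

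Kif16b, which moves early endosomes, had 6 and 5 peaks with THOC5 OE, 4 and 4 with GFP OE, 2 and 2 with Pi and 1 and 2 with Ctrl. All 4 lists of overexpressing cells held more than any of the others, and both THOC5 OE lists more than both GFP OE lists. The mean was 4.75 ± 0.957 peaks in lists of overexpressing cells and 1.75 ± 0.5 in the others (SD, n = 4 each), with p = 0.0286, the smallest the exact two-sided permutation test allows, and adjusted p = 1. At the common score of 29.0 the numbers were 3 and 3 with THOC5 OE, 2 and 2 with GFP OE, 2 and 1 with Pi and 1 and 1 with Ctrl, so that GFP OE and Pi then touched. The place with most lists was exon 19 of 26 (chr2:142711998-142712784), bound in 7 lists at percentiles between 52.0 and 69.7, and absent from Ctrl 1. Its other 8 places were found in at most 5 lists.

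The unconventional myosins had 246 peaks in 11 genes. Myo5a, which carries vesicles along actin, had 10 and 8 peaks with THOC5 OE, 9 and 3 with GFP OE, 5 and 6 with Pi and 8 and 11 with Ctrl. Both Ctrl lists exceeded both Pi lists. The mean over the 4 lists of overexpressing cells and over the 4 others was the same, 7.5 peaks.

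Myo9a and Myo9b join a motor domain to a domain that switches off a small GTPase of the cytoskeleton. Myo9a had 10 and 7 peaks with THOC5 OE, 10 and 6 with GFP OE, 3 and 6 with Pi and 4 and 5 with Ctrl. The lists of overexpressing cells held 8.25 ± 2.06 peaks, against 4.5 ± 1.29 in the others (SD, n = 4 each), touching at 6 peaks, with p = 0.0571 in the exact two-sided permutation test and adjusted p = 1. At the common score it had 9 and 6 peaks with THOC5 OE, 8 and 4 with GFP OE, 3 and 6 with Pi and 4 and 5 with Ctrl.

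Myo9b had 3 and 4 peaks with THOC5 OE, 3 and 4 with GFP OE, 2 and 2 with Pi and 4 and 4 with Ctrl. Both Pi lists were below all 6 others.

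Myo1d, which links membranes to actin, had 4 and 4 with THOC5 OE, 3 and 3 with GFP OE, 2 and 5 with Pi and 2 and 6 with Ctrl. Myo18a, which binds the Golgi, had 2 and 2 with THOC5 OE, 3 and 1 with GFP OE, 3 and 3 with Pi and 2 and 5 with Ctrl. Myo7a, known for its part in the hair cells of the inner ear, had 3 and 2 with THOC5 OE, 1 and 1 with GFP OE, 2 and 2 with Pi and 1 and 4 with Ctrl. For Myo1d, Myo18a and Myo7a the lists of a condition spread as widely as the conditions did.

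Percentiles differed widely between genes. Peaks of Dync1h1, Myo9b and Myo18a had median percentiles of 98.8, 97.6 and 93.8, while those of Kif16b and Kif13a lay at 34.2 and 31.7 and those of Myo6, the myosin that walks toward the minus end of actin, at 17.0. Genes with a single peak in a list were left out of the next shares. Within a list, differences between genes accounted for 60.2% to 76.7% of the variance in percentile of the motor peaks kept. Over the kept peaks of all genes the share was 58.9% to 76.8%, and the ranges overlap. With few peaks per gene, part of such a share comes from the grouping itself, and that part was not measured.

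**Figure D3:**
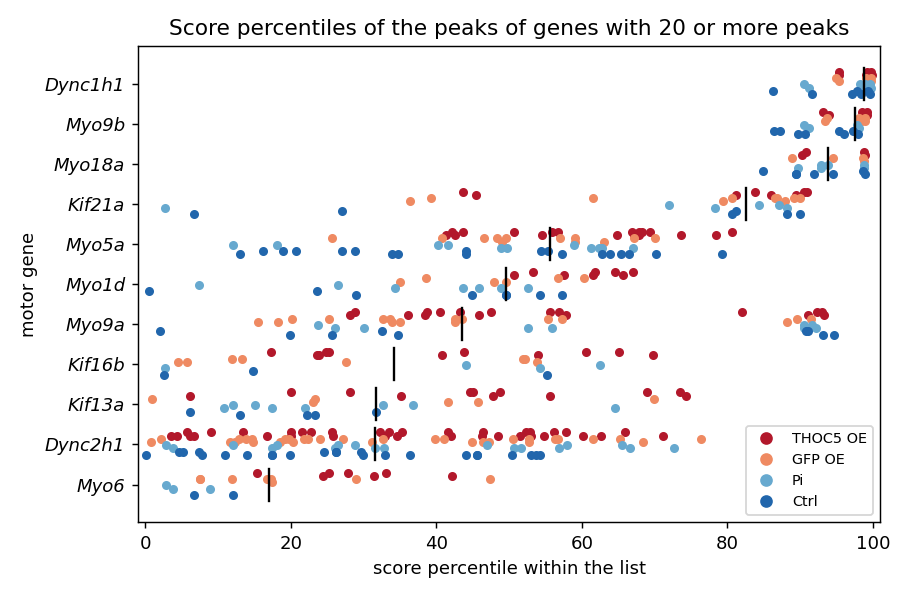
Score percentile within its list (horizontal axis, 0 to 100) of every peak of the 11 motor genes with 20 or more peaks, coloured by condition, with a black line at each gene's median. Dync1h1 and Myo9b lie above 86 in every list, while Dync2h1 peaks spread from near 0 to 76.4.

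Motor peaks fell in introns more often than in exons in every list. The intron share was 71.6% and 75.0% with THOC5 OE, 66.3% and 66.0% with GFP OE, 73.6% and 73.4% with Pi and 60.9% and 59.6% with Ctrl. The intron share of all other gene peaks was lower in each list, between 52.8% and 63.9%. The exon share was 24.2% and 21.2% with THOC5 OE, 28.1% and 28% with GFP OE, 22.6% and 26.6% with Pi and 34.8% and 34.8% with Ctrl. Both Ctrl lists had the highest exon shares and the lowest intron shares. The same held for all other gene peaks, whose exon share was 36.8% and 34.3% in Ctrl and at most 32.4% elsewhere, and whose intron share was 52.8% and 54.2% in Ctrl and at least 56.1% elsewhere. Between 3.37% and 13.2% of the motor peaks of a list lay in annotated repeats, against 6.04% to 10.3% of all other gene peaks. No motor peak lay in rRNA repeats.

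Peaks of different lists that overlapped by at least 1 base were joined into a place, giving 216 places in motor genes. Each of these held a counted motor gene peak, and overlapping peaks of any class or gene name also counted toward its lists. Of these, 9 had a peak in all 8 lists, 4.17%, against 2.66% of all 11907 places, and 88 had one in a single list, 40.7%, against 48.9% of all places. Of the places with exon but no intron peaks, 8 of 40 were found in 6 or more lists, and of those with intron but no exon peaks 14 of 138. This split was not counted over all 11907 places.

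**Figure D4:**
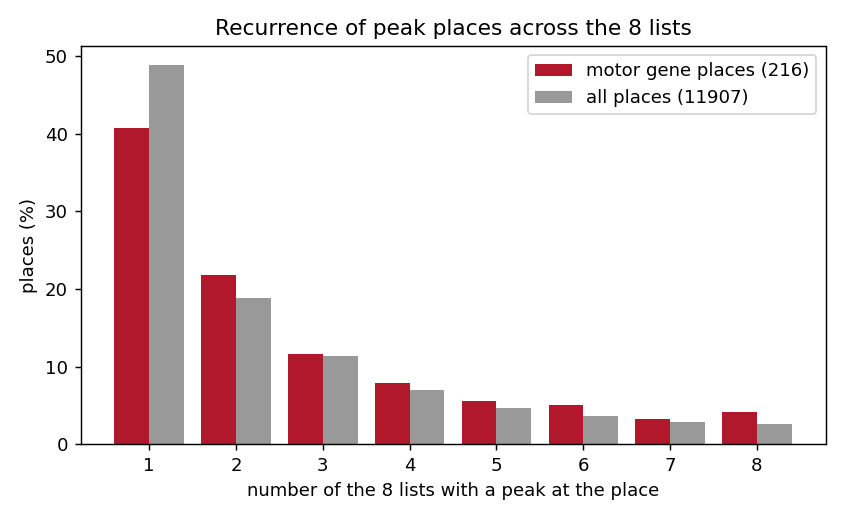
Share of places (vertical axis, percent) with a peak in 1 to 8 of the 8 lists (horizontal axis), for the 216 places in motor genes and for all 11907 places. Motor places are somewhat less often found in a single list, 40.7% against 48.9%, and more often in all 8, 4.17% against 2.66%.

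Dync1h1 had 3 of the 9 places. Intron 1, in a CpG island (chr12:110601625-110602251), had percentiles between 86.2 and 95.3. Exon 8 of 77 (chr12:110617787-110618424) ranked highest of the 9, between 99.4 and 99.8, and the border of intron 46 and exon 47 (chr12:110649177-110649816) lay between 97.9 and 99.3. Myo9b had 2: a place in intron 6 within a PB1D10 SINE (chr8:71323242-71323894), between 87.2 and 93.9, and exon 22 of 39 (chr8:71348527-71349121), between 97.3 and 99.2. Myo18a was bound in exon 1 (chr11:77777438-77778053), between 98.7 and 99.0, and Myo9a in exon 25 of 44 (chr9:59870671-59871383), between 88.2 and 93.1.

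The last 2 places lie in Dync2h1 and ranked lower. Introns 46 and 47 (chr9:7111153-7112075) had percentiles of 57.8 and 60.1 with THOC5 OE, 56.3 and 52.7 with GFP OE, 46.9 and 32.9 with Pi and 24.6 and 45.7 with Ctrl. All 4 lists of overexpressing cells ranked this place above the 4 others. The same held for intron 1 and the border of intron 46 and exon 47 in Dync1h1, and for both places of Myo9b. It did not hold for exon 8 of Dync1h1, exon 1 of Myo18a, exon 25 of Myo9a or exon 1 of Dync2h1. The share over all places in 8 lists was not counted. Exon 1 (chr9:7176439-7177100), the place under the promoter window shown above, had 60.9 and 57.9 with THOC5 OE, 49.4 and 54.5 with GFP OE, 26.5 and 51.6 with Pi and 22.8 and 53.1 with Ctrl. It overlaps the 5′ UTR of Dcun1d5, a gene that starts beside Dync2h1, and the lists name 5 of its peaks for that gene, so these reads cannot be assigned to one of the pair. Percentiles of lists of different lengths show no change by themselves.

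THOC5 OE was set against GFP OE, where both arms carry an overexpressed protein in osteogenic medium, to ask what added THOC5 changes. Kif14, Kif5b, Kif6 and Myh10 were bound in each THOC5 OE list but in no GFP OE list, 4 of 29 motor genes tested, against 6.34% of 2508 genes. None showed the reverse, against 1.2% of genes. Kif14, a kinesin of cytokinesis, had 1 and 1 peak in THOC5 OE and 0 in every other list, at percentiles of 2.04 and 1.75. Kif6 had 3 and 1 peaks in THOC5 OE and 0 in every other list, at percentiles between 2.04 and 6.66. Neither gene had a peak with a score of 29.0 or more. Kif5b, the heavy chain of conventional kinesin, had 1 and 1 with THOC5 OE, 0 and 0 with GFP OE, 1 and 1 with Pi and 1 and 0 with Ctrl, at percentiles between 63.4 and 84.9, and all 5 peaks kept that score. All 5 Kif5b peaks lay in annotated SINE repeats, in introns 24 and 12.

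In peak number both THOC5 OE lists exceeded both GFP OE lists for 9 motor genes, against 14.6% of all genes tested, and for none was it the reverse, against 1.63%. Among them are Kif13a, Kif14, Kif16b, Kif5b, Kif6, Myh10, Myo1d and Myo7a. With 2 lists a condition the exact two-sided permutation test cannot go below p = 0.333, so no gene could pass. Over the 29 genes the difference was positive for 17, negative for 7 and 0 for 5, with a median of 0.5 peaks, against a median of 0.5 over all genes. At the level of places, 10 of 161 motor places were bound in each THOC5 OE list but in no GFP OE list (6.21%, against 8.11% of all places), and 3 showed the reverse (1.86%, against 1.41%). The highest-ranked was exon 21 of Kif1b (chr4:149237083-149237876), a carrier of mitochondria and vesicles, at percentiles of 84.4 and 85.6 and in no other condition.

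GFP OE against Pi compares lists with and without overexpression of a protein other than THOC5, and it shares its GFP OE lists with the comparison above. The labels do not say how GFP was overexpressed, so the protein and the means of its delivery cannot be told apart. Kif20b was bound in each GFP OE list but in no Pi list, 1 of 28 motor genes, against 3.66% of 3064 genes. The reverse held for Kif3c, Kif5b, Myh10 and Myo10, 4 of 28, against 6.49%. Myo10, a motor of filopodia, had 0 and 1 peaks with THOC5 OE, 0 and 0 with GFP OE, 1 and 1 with Pi and 2 and 3 with Ctrl, all at percentiles of 79.1 or more. Its peaks lay at 5 places, of which the 2 in Pi were not the same. In peak number GFP OE exceeded Pi for Dync2h1, Kif16b, Kif20b and Myo9b, against 7.05% of genes, and Pi exceeded GFP OE for 7 (Kif13a, Kif1a, Kif3c, Kif5b, Myh10, Myo10 and Myo7a), against 8.19%. Over the 28 genes the difference was positive for 13, negative for 12 and 0 for 3, with a median of 0, against a median of -0.5 over all genes. At the level of places, 10 of 145 motor places were bound in each GFP OE list but in no Pi list (6.90%, against 5.08% of all places). The reverse held for 3 (2.07%, against 3.76%). Among the 10, the exon 2 place of Myo9b (chr8:71290460-71291031) was found in all lists but the 2 of Pi, at percentiles between 95.3 and 98.7. Another of the 10, in Myo5a (chr9:75070993-75071980), was present in GFP OE 2 only through a peak of the promoter class.

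Pi against Ctrl compares lists from osteogenic medium with lists from growth medium, with the Pi lists shared with the comparison above. No motor gene of 26 was bound in each list of one and absent from the other, against 3.25% of 3384 genes for Pi and 3.63% for Ctrl. Kif13a was the only one with more peaks in both Pi lists, against 4.11% of genes, and Myo10, Myo5a and Myo9b had more in both Ctrl lists, against 6.71%. For the 26 genes the difference was positive for 8, negative for 11 and 0 for 7, with a median of 0, the same as over all genes. Of 143 motor places, 4 were bound in each Pi list but in no Ctrl list (2.80%, against 2.40% of all places). The reverse held for 9 (6.29%, against 4.78%).

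The 4 lists of overexpressing cells were also set against the 4 others, where the exact two-sided test can reach p = 0.0286. Of the 31 motor genes 4 did, and none passed this permutation test after Benjamini-Hochberg adjustment over 4050 genes (adjusted p = 1 for each). Over all genes 108 (2.67%) had an unadjusted p under 0.05 and 0 passed. With p bounded at 0.0286, a gene could pass only if most of the 4050 genes reached that value. The adjusted p therefore cannot tell a difference from none. The 4 others hold both media, so medium and overexpression are partly mixed in this contrast, and the lists of overexpressing cells have the lower score floors. Overexpression and the means used for it cannot be told apart here either. Over the 31 motor genes the difference in peaks was positive for 16, negative for 12 and 0 for 3, with a median of 0.25, against a median of -0.25 over all genes. Every list of overexpressing cells exceeded every other list for Kif16b and Kif20b, against 1.83% of genes, and the reverse held for Kif3c and Myh10, against 0.84%. A peak in all 4 lists of overexpressing cells and in no other was found for Kif20b, against 1.09% of genes, and the reverse for Kif3c, against 0.691%.

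Kif20b, a kinesin of the midbody in dividing cells, had 1 and 1 peaks with THOC5 OE, 2 and 1 with GFP OE and 0 in all Pi and Ctrl lists. Its recurring place was exon 19 of 32 (chr19:34950138-34950784), at percentiles of 7.93 and 8.5 in THOC5 OE and 18.8 and 16.1 in GFP OE. None of its peaks reached the score of 29.0, so with a common floor the difference was 0. Kif3c, a relative of Kif3a, had 0 in all 4 lists of overexpressing cells, 1 and 1 in Pi and 1 and 2 in Ctrl. Its recurring place was exon 1 of 8 (chr12:3366503-3367246), at percentiles of 66.9 and 70.6 in Pi and 47.5 and 71.0 in Ctrl, and at the common floor the 4 lists kept 1 peak each.

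Myh10, the heavy chain of non-muscle myosin IIB, was the only bound Myh gene. It had 1 and 1 peaks with THOC5 OE, 0 and 0 with GFP OE, 2 and 2 with Pi and 2 and 2 with Ctrl, with the same numbers at the common floor. Named by the nearest gene, its difference between overexpressing and other lists was -0.25 peaks, against -1.5 by transcript. The peaks lay at 5 places, of which exon 17 of 41 (chr11:68783240-68783718) was bound in both Ctrl lists alone, at percentiles of 70.1 and 75.6, and intron 30 (chr11:68801716-68802179) in Pi 2 and both Ctrl lists, between 75.9 and 80.1.

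Of the 216 motor places, 2 were found in all 4 lists of overexpressing cells and in no other (0.926%, against 0.823% of all places), that of Kif20b and one in intron 65 of Dync2h1 (chr9:7041147-7041724), at percentiles between 20.2 and 35.2. The reverse held for the exon 1 place of Kif3c (0.463%, against 0.294% of all places).

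**Figure D5:**
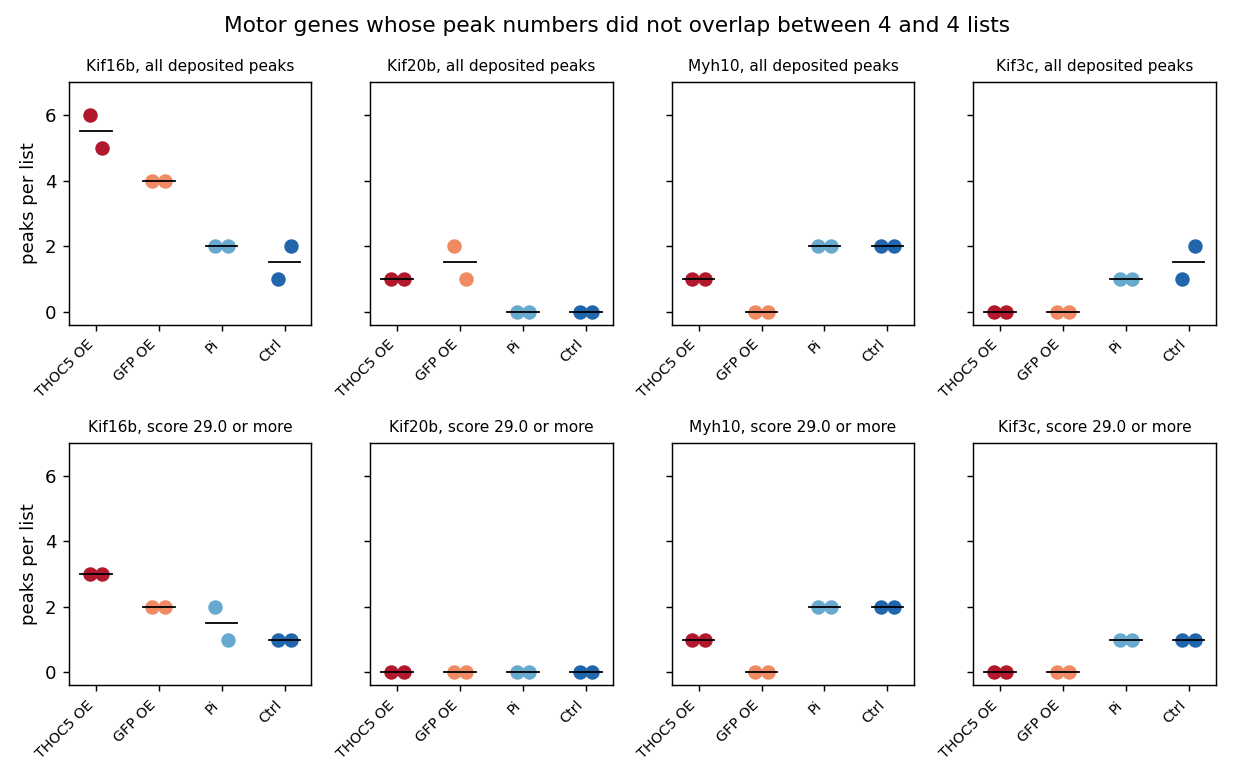
Peaks per list (vertical axis) of Kif16b, Kif20b, Myh10 and Kif3c in the 4 conditions (horizontal axis), each point a list and each black line the mean of 2 lists, with all deposited peaks above and only peaks of score 29.0 or more below. Kif20b is at 0 everywhere in the lower row, while Myh10 keeps its numbers and Kif3c keeps 1 peak in each Pi and Ctrl list.

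Genes that work with the motors were counted from 4 lists. Their shares stand against 18% of protein-coding genes bound in any list and 9.88% of bound genes in all 8. The bound share moved with gene length, as given above, and these lists were not set against genes of like length. Of the dynactin and dynein adaptor genes, 13 of 35 were bound in any list, and Ninl and Rab11fip3 in all 8. Among kinesin light chains, adaptors and minus-end kinesins 14 of 22 were bound, with Spag9, a scaffold that links kinesin to JNK kinases, and Dennd4a in all 8. Of the myosin light chains, kinases, phosphatases and actin regulators 16 of 30 were bound, and only Mylk in all 8. Mylk, the kinase that starts smooth muscle contraction, had 11 and 9 peaks with THOC5 OE, 8 and 5 with GFP OE, 7 and 7 with Pi and 6 and 11 with Ctrl. Of the microtubule tracks and their binders 22 of 36 were bound, with Clip1 and Macf1 in all 8. Macf1, a giant linker of actin and microtubules, had 10 and 7 with THOC5 OE, 11 and 5 with GFP OE, 8 and 13 with Pi and 13 and 14 with Ctrl.

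A peak in every list of overexpressing cells and in none of the others was found for 1 gene of these lists, Limk2, an actin-regulating kinase, against 1.09% of all genes, and the reverse for none, against 0.691%. Kifc3, Madd, Map4 and Clip2 were bound in each THOC5 OE list but in no GFP OE list, against 6.34% of all genes, and no gene of the 4 lists showed the reverse, against 1.2%. The number of listed genes tested in this comparison was not counted. Only Madd had no peak in Pi or Ctrl. Clip2 had 2 and 4 peaks in Ctrl, against 1 and 1 with THOC5 OE. Kifc3 had 1 peak each in Pi 2 and Ctrl 2, and Map4 had 1 in Ctrl 2.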

How the data were processed

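RNA bound by THOC5 was profiled in primary mouse vascular smooth muscle cells. Per the file headers, the authors annotated each of the 8 deposited peak lists with HOMER's annotatePeaks.pl on mm10. FastQC, Bowtie2, MACS2 and SAMtools are named without roles, per the submitters' processing notes. The sources used here do not give how peaks were called or whether inputs entered. The deposited value is the authors' peak score, whose scale is not stated, and it was used only to rank or filter peaks. Lists were matched to samples by the abbreviation in their headers.

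The gene of a peak was that of its annotated RefSeq transcript, in exons, introns, UTRs, TTS and non-coding classes. Promoter and intergenic classes were left out of the counts per gene. Of 28614 peaks with a transcript, 28581 (99.9%) matched a gene. Peaks per gene and list were compared by exact two-sided permutation over lists, with Benjamini-Hochberg adjustment over all genes (Python 3.11.15, SciPy 1.17.1), a script tested on simulated data. Genes were named if bound in all 8 lists, among the 10 with most peaks, or bound in each list of a condition and absent from another. Other genes are named only where a count of a few lists them, and 1 bound gene is not reported here by name. The members and lists were chosen with earlier results of these data known. The alternatives were a median score, equal list length, the nearest gene, introns left out, promoters added, 50% overlap, scaling per 1000 peaks, each list left out, a replicate block and, added later, a common score floor and a crossed pairing. The labels do not say whether replicate numbers pair the lists.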

Additional observations from a re-analysis of the deposited data

Results flagged for a closer look

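Some peaks outside the counted classes were found in osteogenic lists and in no Ctrl list. A place in the promoter of Kif28, a gene with no counted peak, was bound in 4 of the 6 osteogenic lists (both THOC5 OE and both Pi, neither GFP OE), at percentiles between 55.9 and 63.0. A place annotated as intergenic but inside the RefSeq span of Myo18a was bound in 5 of the 6 (both THOC5 OE, GFP OE 2 and both Pi), at percentiles between 7.12 and 40.0. The place at the Myo9a start that the lists name for Senp8 was bound in the same 5 lists, at percentiles between 42.6 and 60.4. The 3 places are given because of this pattern, and the share of all places that show it was not counted. The lists also start at different scores, at 29.0 and 15.9 with Ctrl and 20.5 and 14.9 with Pi. With THOC5 OE they start at 6.72 and 6.31, and with GFP OE at 10.2 and 12.6. The 3 differences from Ctrl were not tested.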

How the results depend on the processing

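With the higher-scored peaks of each list only (score at or above its median), the motor genes bound in both lists numbered 13 in THOC5 OE, 10 in GFP OE, 12 in Pi and 8 in Ctrl, and their mean peaks per list were 42 in THOC5 OE, 28 in GFP OE, 29.5 in Pi and 32 in Ctrl. The exon share of motor peaks was then 39.9%, against 27.5% with all peaks, 2 genes separated THOC5 OE from GFP OE, 0 genes separated overexpressing cells from the others in either direction, and the Myo1d difference of overexpressing minus other lists turned to 1.75 peaks. With all lists shortened to 2572 peaks the means were 53.5 in THOC5 OE, 53.5 in GFP OE, 48 in Pi and 46 in Ctrl, 2 genes were bound only in THOC5 OE against GFP OE and 1 the other way, 2 in GFP OE against Pi, 0 genes were higher in all lists of overexpressing cells, and the Myo1d difference was 0.5. Naming peaks by the nearest gene gave means of 61 in THOC5 OE, 44.5 in GFP OE, 38.5 in Pi and 47 in Ctrl, 1 gene bound in Pi and not Ctrl, 1 in Ctrl and not Pi, 1 gene each way between overexpressing and other lists, and differences of -0.25 for Dync2h1 and, against -1.5, -0.25 for Myh10. Leaving out introns gave 12 genes in both lists of THOC5 OE, 11 in GFP OE and 9 in Pi, with means of 23.5 peaks in THOC5 OE, 23.5 in GFP OE, 15.5 in Pi and 27 in Ctrl. The exon share was then 87.1%, 2 genes were bound in THOC5 OE and not GFP OE, 3 in GFP OE and not Pi, 2 in Pi and not GFP OE, 1 in Pi and not Ctrl and 2 in Ctrl and not Pi, with 1 gene each way between overexpressing and other lists, and differences of -0.5 for Dync2h1 and -0.25 for Kif13a. Adding promoters gave 1 gene bound in Pi and not Ctrl. A common score floor of 29.0, chosen after seeing the data, gave means of 64 in THOC5 OE, 47.5 in GFP OE, 51.5 in Pi and 60 in Ctrl, 2 genes bound in THOC5 OE and not GFP OE, 0 in GFP OE and not Pi and 0 higher in all lists of overexpressing cells. For each of these, the cause was not tested beyond the fewer peaks that an alternative leaves.

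Leaving out each list in turn gave 0 to 2 genes bound in GFP OE and not THOC5 OE (2 without THOC5 OE 1, 1 without GFP OE 2) and 1 to 4 in GFP OE and not Pi (4 without GFP OE 2, 2 without Pi 1, 3 without Pi 2). It gave 0 to 2 in Pi and not Ctrl (1 without Pi 2 or Ctrl 1, 2 without Ctrl 2) and 0 to 2 in Ctrl and not Pi (1 without Pi 2, 2 without Ctrl 1). Without GFP OE 2, 4 genes were higher in all remaining lists of overexpressing cells, with 2 to 4 over all lists left out. The Myo1d difference of -0.25 ranged from -0.833 to 0.5 (0.167 without Pi 2, 0.5 without Ctrl 2), and the Myo7a difference of -0.5 from -0.917 to 0.0833 (0.0833 without Ctrl 2).

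Places in all 8 lists numbered 8 when peaks had to overlap by 50% and 7 with the higher-scored peaks, against 9. Whether replicate numbers pair the lists is not known. In their deviations, same-numbered lists correlated at 0.24 between THOC5 OE and GFP OE and at 0.37 between Pi and Ctrl. Across these pairs of conditions the correlations lay between -0.40 and -0.23. List length ran the same way, with replicate 1 longer in THOC5 OE and GFP OE and replicate 2 longer in Pi and Ctrl. The correlations therefore cannot decide the pairing. With the replicate number as a block, 0 genes passed in each of the 4 comparisons, where the smallest p possible is 0.5 between conditions and 0.0556 between 4 and 4 lists, and crossing the numbers of GFP OE and Pi, chosen after seeing the data, also gave 0. No alternative made any gene pass after adjustment, but the smallest p possible with so few lists left little or no room for that. The unknown read depth, 2 lists a condition and lists that start at different scores limit these counts, and a gene at 0 has no peak above its list's floor.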
